A study of Mus musculus with 2 samples.

Results

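Irg1 and 8 enzymes of the tricarboxylic acid (TCA) cycle were followed in mouse dendritic cells exposed to UNE-C1. The 9 genes were Irg1, Cs, Idh1, Idh2, Idh3a, Ogdh, Fh1, Mdh1 and Mdh2, taken by symbol from the 23238 gene symbols of the count tables. All 9 were present once in each table, and all 9 had at least 50 reads in 1 or both libraries, the floor used for every comparison.

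The first library came from bone marrow-derived dendritic cells (BMDCs) given UNE-C1 at 100 nM for 24 h, and the second from a control culture of the same kind. What the control culture received is not stated. In both, marrow of female C57BL/6 mice aged 7 weeks was grown with GM-CSF at 20 ng/ml, with more GM-CSF on day 3, and non-adherent or loosely attached immature cells were collected on day 6. Such cultures are mixed populations of dendritic, macrophage-like and granulocytic cells. UNE-C1, a fragment of the enzyme that charges cysteine onto its tRNA, has been described as a Toll-like receptor ligand, and the series asks which signalling molecules it induces. The UNE-C1 library held 15975821 reads over 14768 genes and the control library 14857198 reads over 14940 genes. Since each group analysed was a single library, replicate error is unknown and no test could be run. Every difference below is a difference between 2 libraries, and every interval is an exact 95% interval that covers counting error only.

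The TCA cycle oxidises acetyl groups in the mitochondrial matrix and passes the electrons on as NADH and succinate to the respiratory chain. Its intermediates also leave the mitochondrion as citrate and malate and feed lipid synthesis and redox balance in the cytosol. Irg1, now named Acod1, encodes the mitochondrial enzyme that decarboxylates cis-aconitate, an intermediate between citrate and isocitrate, to itaconate. Macrophages and dendritic cells make itaconate after Toll-like receptor stimulation. It inhibits succinate dehydrogenase and modifies cysteines of proteins such as KEAP1. In macrophages activated with bacterial lipopolysaccharide, less carbon is known to pass through the isocitrate and succinate steps of the cycle.

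The promoters differed in make-up between Irg1 and the cycle enzymes. The 250 bases before the RefSeq start site (build GRCm38.p6) are shown 5′ to 3′ for Irg1, for Idh2 and Fh1, both lower in the UNE-C1 library, and for Cs, whose level differed little. Capitals mark a TATA box (TATAAA) and a hypoxia response core (GACGTG, on the reverse strand) in Irg1, and an NF-kappaB motif on the reverse strand in Idh2.
Irg1, chr14:103046762-103047011, plus strand: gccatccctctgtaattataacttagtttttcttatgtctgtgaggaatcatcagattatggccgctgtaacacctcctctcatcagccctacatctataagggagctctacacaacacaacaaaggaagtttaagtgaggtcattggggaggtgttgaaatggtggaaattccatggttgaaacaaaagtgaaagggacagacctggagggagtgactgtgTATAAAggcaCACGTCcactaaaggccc
Idh2, chr7:80115351-80115600, minus strand: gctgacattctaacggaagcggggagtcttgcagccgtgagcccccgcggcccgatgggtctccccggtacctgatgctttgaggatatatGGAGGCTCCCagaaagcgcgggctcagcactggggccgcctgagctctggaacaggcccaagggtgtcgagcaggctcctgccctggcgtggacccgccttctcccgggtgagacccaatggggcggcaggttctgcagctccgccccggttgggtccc
Fh1, chr1:175625636-175625885, minus strand: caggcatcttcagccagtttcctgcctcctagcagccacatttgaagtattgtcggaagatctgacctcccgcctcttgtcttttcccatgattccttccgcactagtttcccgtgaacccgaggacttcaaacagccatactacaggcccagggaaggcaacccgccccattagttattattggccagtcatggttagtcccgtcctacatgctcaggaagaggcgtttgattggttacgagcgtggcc
Cs, chr10:128337477-128337726, plus strand: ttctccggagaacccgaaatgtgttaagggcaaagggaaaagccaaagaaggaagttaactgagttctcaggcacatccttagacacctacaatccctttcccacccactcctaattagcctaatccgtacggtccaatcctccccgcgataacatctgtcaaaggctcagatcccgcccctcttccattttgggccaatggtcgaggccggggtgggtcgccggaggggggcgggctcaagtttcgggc
In GENCODE M21 the Irg1 gene begins 35 bases upstream of the RefSeq start and the Idh2 gene 42 bases upstream, so that the last bases shown lie in the first exon of that annotation.

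RefSeq listed a promoter for 8 of the 9 genes, of which Irg1 was found under Acod1. The Irg1 window held 2 CpG dinucleotides and 44.4% G and C. The other 7 windows held 10 to 23 CpG dinucleotides and 52.8% to 67.2% G and C. Over 27025 promoters (the first listed start of each gene) the medians were 6 CpG dinucleotides and 52.0% G and C, and 29.6% of promoters had 2 or fewer CpG dinucleotides. Among the 8 windows the TATA box occurred in Irg1 alone, from base -28 to base -23, against 13.0% of all promoters. The hypoxia response core, searched only as GACGTG, occurred in Irg1, Ogdh and Mdh1, against 5.18% of all promoters. Both Irg1 motifs lie within the last 35 bases before the RefSeq start. GENCODE M21 places those bases inside the gene, so neither motif is upstream of its start there. The Ogdh and Mdh1 windows did not match the start of a GENCODE transcript, and the RefSeq start of Mdh1 lies 433 bases inside the GENCODE gene. The NF-kappaB motif, searched only as GGGR-NN-YYCC, occurred in Idh2 alone, against 7.01%. None of the 8 windows held an interferon-stimulated response element (GAAA-NN-GAAA, in 3.04% of all promoters), a gamma-activated site (TTCNNNGAA, 7.18%), an AP-1 site (TGANTCA, 6.87%), an NRF1 site (GCGCA-N-GCGC, 3.86%) or an estrogen-related receptor site (TCAAGGTCA, 0.366%). Both strands were searched, and a match is a match of letters. Other spellings of these motifs were not searched, so a window without a match may still hold one of them.

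Irg1 was far higher in the UNE-C1 library. It had 40212 reads in the UNE-C1 library and 4167 reads in the control library. Scaled to library size as CPM (read counts per 1e+06 reads, with TMM scaling), its level was 2835 CPM in the UNE-C1 library (interval 2807 to 2863) and 249 CPM in the control library (242 to 257). The ratio was 11.4 (interval 11.0 to 11.8), a log2 fold change of 3.50 on the log2(CPM + 1) scale. Fold changes are UNE-C1 over control throughout, so a positive value means higher in the UNE-C1 library. Irg1 took 0.252% of all UNE-C1 reads (0.249% to 0.254%) and 0.0280% of all control reads (0.0272% to 0.0289%). By read number it ranked 33 among the genes with a read in the UNE-C1 library and 539 in the control library. The transcript was already abundant in the control culture, and its fold change ranked 82 from the top of 10469 genes. The gene lies at chr14:103046977-103056573, plus strand, in GRCm38 (mm10), has a single annotated transcript in GENCODE M21 and overlaps no other gene there.

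**Figure D1:**
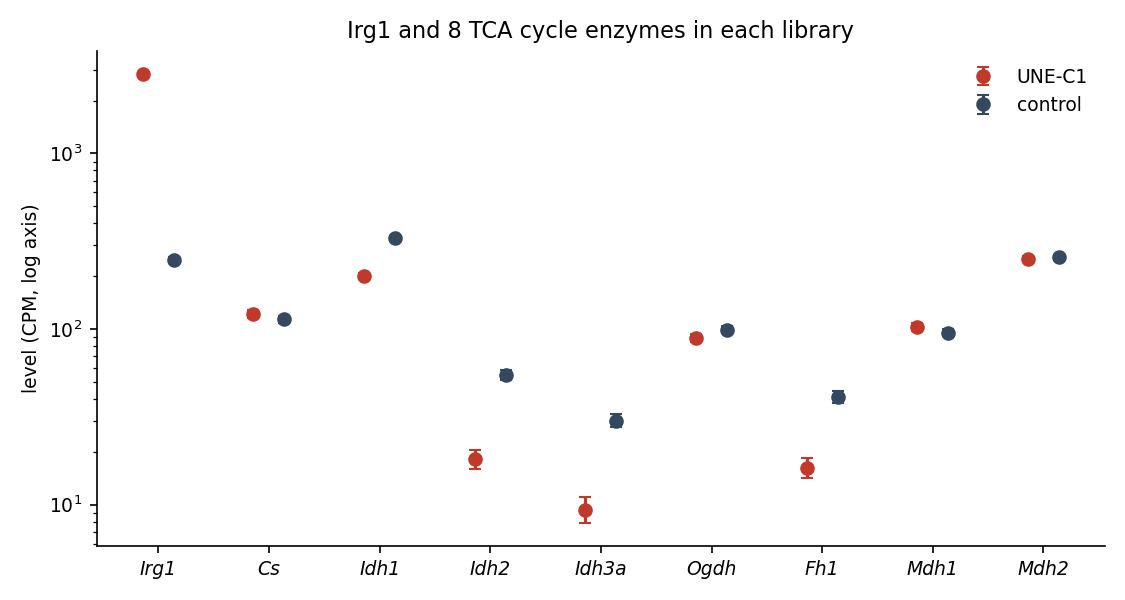
Level of each of the 9 genes in CPM on a log axis, UNE-C1 in red and control in dark blue, 1 library each, with exact 95% counting intervals. Irg1 stands at 2835 CPM with UNE-C1 and 249 CPM in the control, and Idh2, Idh3a and Fh1 lie lower in the UNE-C1 library.

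Read against the cycle itself, the difference in Irg1 can be given without library scaling. Citrate synthase, encoded by Cs, makes the citrate from which cis-aconitate is drawn. There were 23.2 Irg1 reads for each Cs read in the UNE-C1 library and 2.19 in the control library, a ratio of ratios of 10.6 (interval 9.86 to 11.4). Against the summed reads of all 8 cycle enzymes, Irg1 stood at 3.51 reads per read in the UNE-C1 library and 0.245 in the control library, a ratio of ratios of 14.3 (13.8 to 14.9). In the UNE-C1 library the Irg1 reads thus outnumbered those of the 8 enzymes together (40212 against 11471), whereas in the control library they did not (4167 against 17039). The kit named in the labels primes from the 3′ end of messenger RNA, so longer transcripts do not yield more reads, and no length correction was applied.

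Of the 9 genes, Irg1 alone stood 2-fold or more above its control level on the log2(CPM + 1) scale, where 9.31% of the 10469 genes past the floor were. Idh2, Idh3a and Fh1 were at least 2-fold lower, where 9.42% of all genes past the floor were. The median log2 fold change of the 8 cycle enzymes was -0.43 (from -1.58 for Idh3a to 0.10 for Mdh1), and that of all genes past the floor was -0.00. Scaling to total counts instead of TMM moved the median of all genes to -0.33 and that of the 8 enzymes to -0.77. Under that scaling Idh1 also passed 2-fold lower, making 4 of the 9 genes, where 16.2% of all genes were, and Irg1 was again the 1 gene at least 2-fold higher, where 6.28% were.

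**Figure D2:**
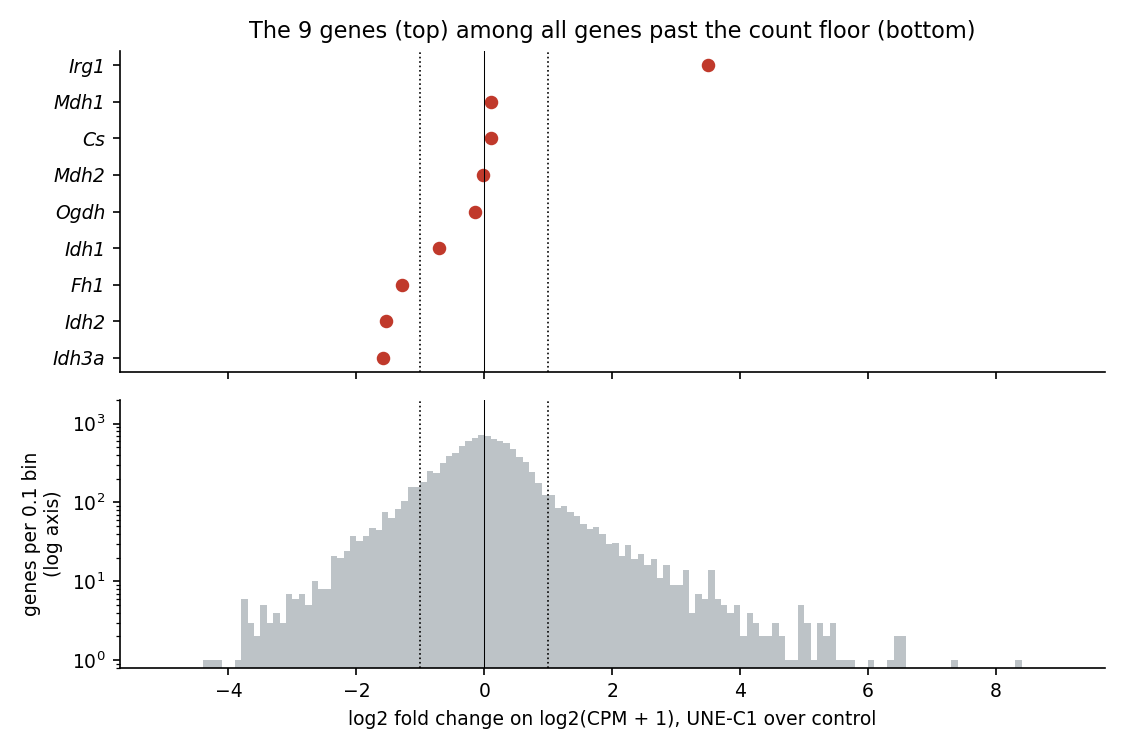
Log2 fold change (UNE-C1 over control, on log2(CPM + 1)) of the 9 genes, as points in the upper panel, above the histogram of all 10469 genes past the count floor on a log axis. Dotted lines mark 2-fold, and Irg1 at 3.50 and Idh3a, Idh2 and Fh1 at -1.58, -1.54 and -1.29 lie outside them.

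The isocitrate dehydrogenases were lower in the UNE-C1 library, to unequal degrees. Idh3a encodes the catalytic alpha subunit of the NAD-dependent enzyme that turns isocitrate into 2-oxoglutarate within the cycle. It had 133 reads in the UNE-C1 library and 504 in the control library, or 9.38 CPM (7.85 to 11.1) with UNE-C1 against 30.1 CPM (27.5 to 32.9) in the control. That is 3.21-fold lower (interval 2.65 to 3.92), and its fold change ranked 357 from the bottom of the 10469 genes. Idh2, the NADP-dependent enzyme of the mitochondrial matrix, had 257 reads in the UNE-C1 library and 916 in the control library, or 18.1 CPM (16.0 to 20.5) with UNE-C1 against 54.7 CPM (51.3 to 58.4) in the control. Its level was 3.02-fold lower (2.63 to 3.48). Idh1, the NADP-dependent enzyme of the cytosol and peroxisome, had 2837 reads in the UNE-C1 library and 5490 in the control library, with intervals of 193 to 208 CPM with UNE-C1 against 319 to 337 CPM in the control. At 1.64-fold lower (1.57 to 1.72) it did not reach 2-fold with TMM scaling, but was 2.08-fold lower (1.99 to 2.18) with total counts.

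The balance between the cytosolic and the mitochondrial NADP-dependent enzyme can be read without scaling. Idh1 made up 91.7% of the Idh1 and Idh2 reads in the UNE-C1 library (90.7% to 92.6%) and 85.7% in the control library (84.8% to 86.5%). The 2 intervals do not overlap. For malate dehydrogenase, the cytosolic Mdh1 made up 29.0% of the Mdh1 and Mdh2 reads in the UNE-C1 library (27.7% to 30.2%) and 27.2% in the control library (26.0% to 28.3%), with intervals that overlap.

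Idh3a was also low in relation to the other subunits of its enzyme. Idh3b and Idh3g encode the beta and gamma subunits, which are regulatory. Idh3b had 653 reads in the UNE-C1 library and 1079 in the control library, and Idh3g had 555 reads in the UNE-C1 library and 781 in the control library. Idh3a accounted for 9.92% of the reads of the 3 subunit genes in the UNE-C1 library (8.37% to 11.6%) and for 21.3% in the control library (19.7% to 23.0%). Per Idh3b read there were 0.204 Idh3a reads with UNE-C1 and 0.467 in the control, 2.29-fold lower (interval 1.84 to 2.86), and per Idh3g read 2.69-fold lower (2.15 to 3.38). This subunit comparison was chosen after the values were seen.

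Fh1 encodes fumarase, which hydrates fumarate to malate. It had 230 reads in the UNE-C1 library and 689 in the control library, or 16.2 CPM (14.2 to 18.5) with UNE-C1 against 41.2 CPM (38.2 to 44.4) in the control. Its level was 2.54-fold lower (2.18 to 2.96), and its fold change ranked 572 from the bottom. Fh1 lies at chr1:175600374-175625635, minus strand, and overlaps the oppositely oriented Kmo (0 reads in the UNE-C1 library and 18 in the control library).

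With TMM scaling, Cs, Mdh2, Mdh1 and Ogdh differed little. Cs had 1730 reads in the UNE-C1 library and 1902 in the control library, or 122 CPM (116 to 128) with UNE-C1 against 114 CPM (109 to 119) in the control, a ratio of 1.07 (1.00 to 1.15). Mdh2, the mitochondrial malate dehydrogenase that regenerates oxaloacetate, had 3564 reads in the UNE-C1 library and 4279 in the control library, a CPM ratio of 0.983 (0.940 to 1.03). Mdh1, which works in the malate-aspartate shuttle, had 1453 reads in the UNE-C1 library and 1596 in the control library, a CPM ratio of 1.07 (1.000 to 1.15). Their log2 fold changes of 0.10, -0.03 and 0.10 became -0.24, -0.37 and -0.24 with total counts, so that Cs and Mdh1 changed sign with the scaling. Per Cs read, there were 0.840 Mdh1 reads in the UNE-C1 library and 0.839 in the control library (ratio of ratios 1.00, interval 0.908 to 1.10). Ogdh, the thiamine-dependent component of the 2-oxoglutarate dehydrogenase complex, had 1267 reads in the UNE-C1 library and 1663 in the control library, or 89.3 CPM (84.5 to 94.4) with UNE-C1 against 99.4 CPM (94.7 to 104) in the control, 1.11-fold lower (1.03 to 1.20).

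The 8 enzymes together summed to 809 CPM in the UNE-C1 library and 1018 CPM in the control library, 1.26-fold lower (1.23 to 1.29). In the UNE-C1 library the order of levels was Mdh2, Idh1, Cs, Mdh1, Ogdh, Idh2, Fh1 and Idh3a, and only the intervals of Idh2 and Fh1 overlapped among neighbours. In the control library the order was Idh1, Mdh2, Cs, Ogdh, Mdh1, Idh2, Fh1 and Idh3a, and only those of Ogdh and Mdh1 overlapped. Mdh2 led in the UNE-C1 library with 31.1% of the reads of the 8 genes (30.2% to 31.9%), against 25.1% in the control library (24.5% to 25.8%). Idh1 took 24.7% in the UNE-C1 library (23.9% to 25.5%), against 32.2% in the control library (31.5% to 32.9%), where it led. Idh2, Idh3a and Fh1 were the 3 lowest of the 8 genes in either library. How well each transcript was captured at its 3′ end was not measured, so the order describes reads.

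**Figure D3:**
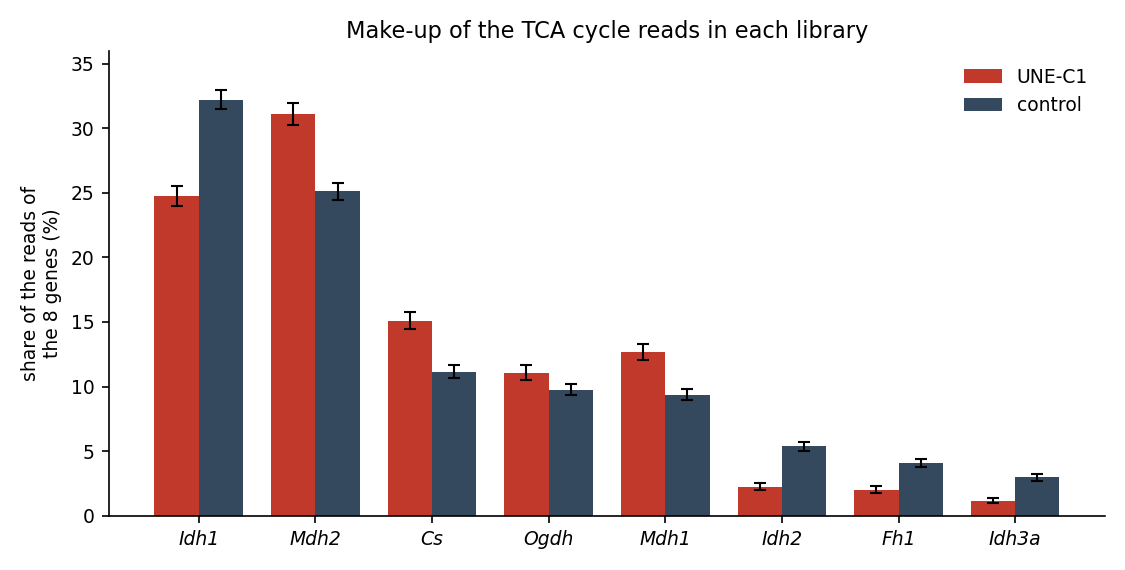
Share of each gene in the summed reads of the 8 cycle enzymes (11471 reads with UNE-C1, 17039 in the control), as bars with exact 95% binomial intervals, UNE-C1 in red and control in dark blue. The shares of Idh1, Idh2, Fh1 and Idh3a are smaller in the UNE-C1 library, and those of Mdh2, Cs, Mdh1 and Ogdh are larger.

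A list of 12 other cycle genes held none that passed 2-fold, where 9.31% of all genes past the floor were higher and 9.42% lower. The median log2 fold change of the 12 genes was -0.26, with 2 above 0 and 10 below. Suclg2, the GTP-specific beta subunit of succinyl-CoA synthetase, was the lowest at -0.89 on only 29 reads in the UNE-C1 library and 78 in the control library, and its plain ratio was 2.28-fold lower. It passed 2-fold lower with total counts and with a pseudocount of 0.1 CPM. The highest was Sdhb, at 0.08. Sdha, Sdhb, Sdhc and Sdhd, the subunits of succinate dehydrogenase, which itaconate inhibits, had log2 fold changes of -0.09, 0.08, -0.48 and -0.59, and they also belong to the respiratory chain. Of these 20 cycle genes, the 3 that passed 2-fold were Idh2, Idh3a and Fh1, all lower, beside 9.42% of all genes. With total counts Idh1 and Suclg2 passed 2-fold lower as well, beside 16.2% of all genes.

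**Figure D4:**
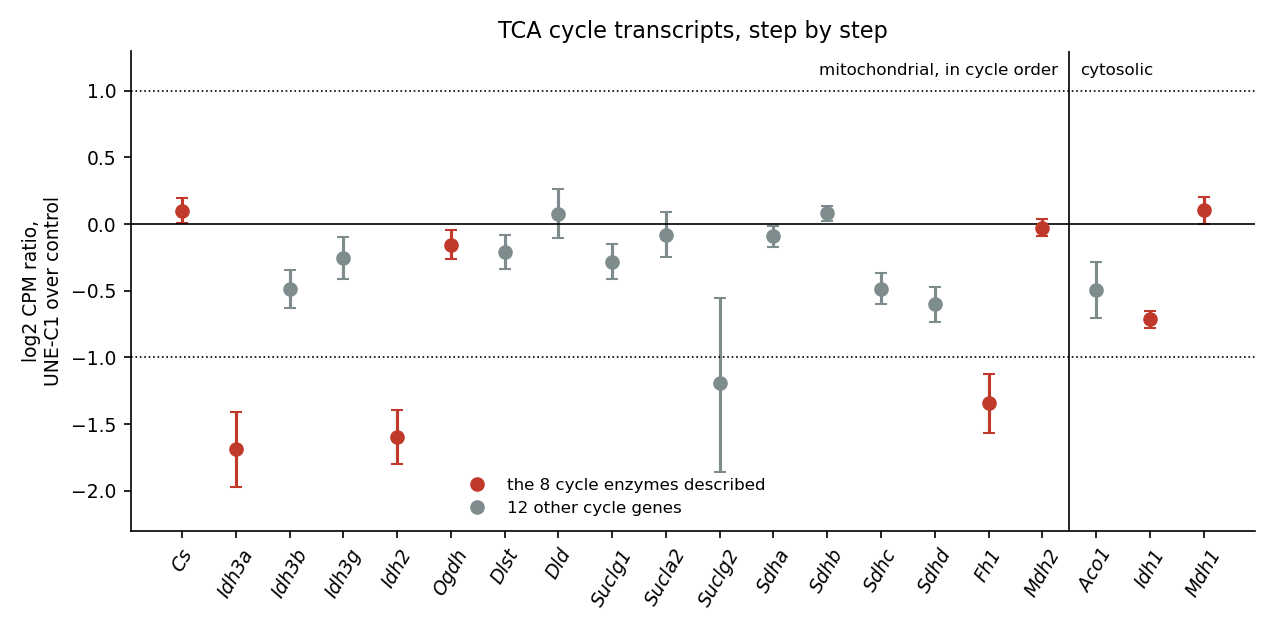
Log2 ratio of CPM (UNE-C1 over control) for 17 mitochondrial cycle genes in the order of the cycle and for 3 cytosolic counterparts, with exact 95% counting intervals. The 8 enzymes described are in red and the 12 others in grey. Dotted lines mark 2-fold on the plain ratio, on which Suclg2 also lies below the line with a wide interval.

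Genes that act on itaconate or that it is known to act on, listed with Irf1, which acts on Irg1, were spread widely. Suclg1, Suclg2 and Sdha were also on the list of other cycle genes. Of the 15 genes on the itaconate list, 13 passed the floor, with 8 above 0 and 5 below. Past 2-fold, 5 were higher and 1 was lower, beside 9.31% and 9.42% of all genes, and the median log2 fold change was 0.49. With total counts, 4 were higher and 3 lower, beside 6.28% and 16.2% of all genes, and the median was 0.16. Raising the floor to 200 reads gave a median of 0.98. Hmox1, heme oxygenase and a target of the NRF2 factor, had 18886 reads in the UNE-C1 library and 2081 in the control library (10.7-fold higher, interval 10.2 to 11.2). Nqo1, on the same list, had 537 reads in the UNE-C1 library and 447 in the control library (1.42-fold higher, 1.25 to 1.61). Its log2 fold change was 0.49, and 0.16 with total counts. Keap1, the cysteine-rich inhibitor of NRF2, had 3600 reads in the UNE-C1 library and 1545 in the control library (2.75-fold higher, 2.59 to 2.92). Nfe2l2, which encodes NRF2 itself, had 5565 reads in the UNE-C1 library and 11387 in the control library (1.73-fold lower, log2 fold change -0.79), and passed 2-fold lower with total counts. Irf1, a transcription factor known to induce Irg1 in mouse macrophages, was 2.70-fold higher (2.57 to 2.83) and the stress factor Atf3 2.72-fold higher (2.63 to 2.81). Clybl, the mitochondrial lyase of itaconate breakdown, had 341 reads in the UNE-C1 library and 174 in the control library (2.31-fold higher, 1.92 to 2.79). With total counts its log2 fold change was 0.81 and it was not counted. Nfkbiz had 205 reads in the UNE-C1 library and 187 in the control library (1.29-fold higher, 1.06 to 1.59).

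Of the transport genes on that list, Abcg2, an efflux pump known to export itaconate, was the 1 gene counted as lower, with 28 reads in the UNE-C1 library and 93 in the control library (log2 fold change -1.14). It was not counted as lower with a pseudocount of 5 CPM, and was below a floor of 200 reads. Rab32, a GTPase known to deliver itaconate to vacuoles holding bacteria, had 2265 reads in the UNE-C1 library and 1349 in the control library (1.98-fold higher, 1.85 to 2.12), just short of 2-fold. Slc13a3, a dicarboxylate importer, had 1 read in the UNE-C1 library and 15 in the control library. Oxgr1, a receptor for 2-oxoglutarate and itaconate, had 0 reads in either library, which allows up to 0.211 CPM in the UNE-C1 library and 0.179 CPM in the control library.

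Genes that feed the cycle were little different for the most part. Of 20 genes of pyruvate and glutamine entry past the floor, 3 were at least 2-fold higher and 0 lower, beside 9.31% and 9.42% of all genes, with a median log2 fold change of -0.03. With total counts, 1 was higher and 1 lower, beside 6.28% and 16.2% of all genes, and no difference from those shares was tested. Me1, the cytosolic malic enzyme that makes NADPH, had 246 reads in the UNE-C1 library and 84 in the control library (3.45-fold higher, 2.69 to 4.48). Pdk1, a kinase that inactivates pyruvate dehydrogenase, had 775 reads in the UNE-C1 library and 358 in the control library (2.55-fold higher, 2.25 to 2.90). Pcx, the pyruvate carboxylase that makes oxaloacetate, had only 76 reads in the UNE-C1 library and 35 in the control library (2.56-fold higher, 1.70 to 3.94). Pcx was not counted as higher with upper quartile scaling or a pseudocount of 5 CPM, and was below a floor of 200 reads. With total counts Me1 was the only one of the 3 that passed 2-fold on the log2(CPM + 1) scale, and Pck2 then passed 2-fold lower. The plain ratios of Pdk1 and Pcx with total counts were 2.01 and 2.02. The subunit genes of pyruvate dehydrogenase, Pdha1, Pdhb, Dlat and Pdhx, had log2 fold changes of -0.37, 0.16, -0.08 and -0.30.

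On the export side, of 9 genes of citrate and dicarboxylate carriers and citrate use, 1 was at least 2-fold higher and 2 lower, beside 9.31% and 9.42% of all genes, with a median of 0.10. With total counts, 0 were higher and 2 lower, beside 6.28% and 16.2%. Fasn, fatty acid synthase, was 4.70-fold lower (3.94 to 5.63). Slc25a13, a mitochondrial aspartate-glutamate carrier, had 155 reads in the UNE-C1 library and 554 in the control library (3.03-fold lower, 2.53 to 3.64), whereas its paralogue Slc25a12 had 1239 reads in the UNE-C1 library and 784 in the control library (1.86-fold higher, 1.70 to 2.04). Acss2, which makes acetyl-CoA from acetate, was 2.14-fold higher (1.87 to 2.45), and was no longer counted with total counts, upper quartile scaling or a pseudocount of 5 CPM. The citrate carrier Slc25a1 was 1.86-fold higher (1.66 to 2.08), and Acly, which splits citrate in the cytosol, had a log2 fold change of -0.02.

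**Figure D5:**
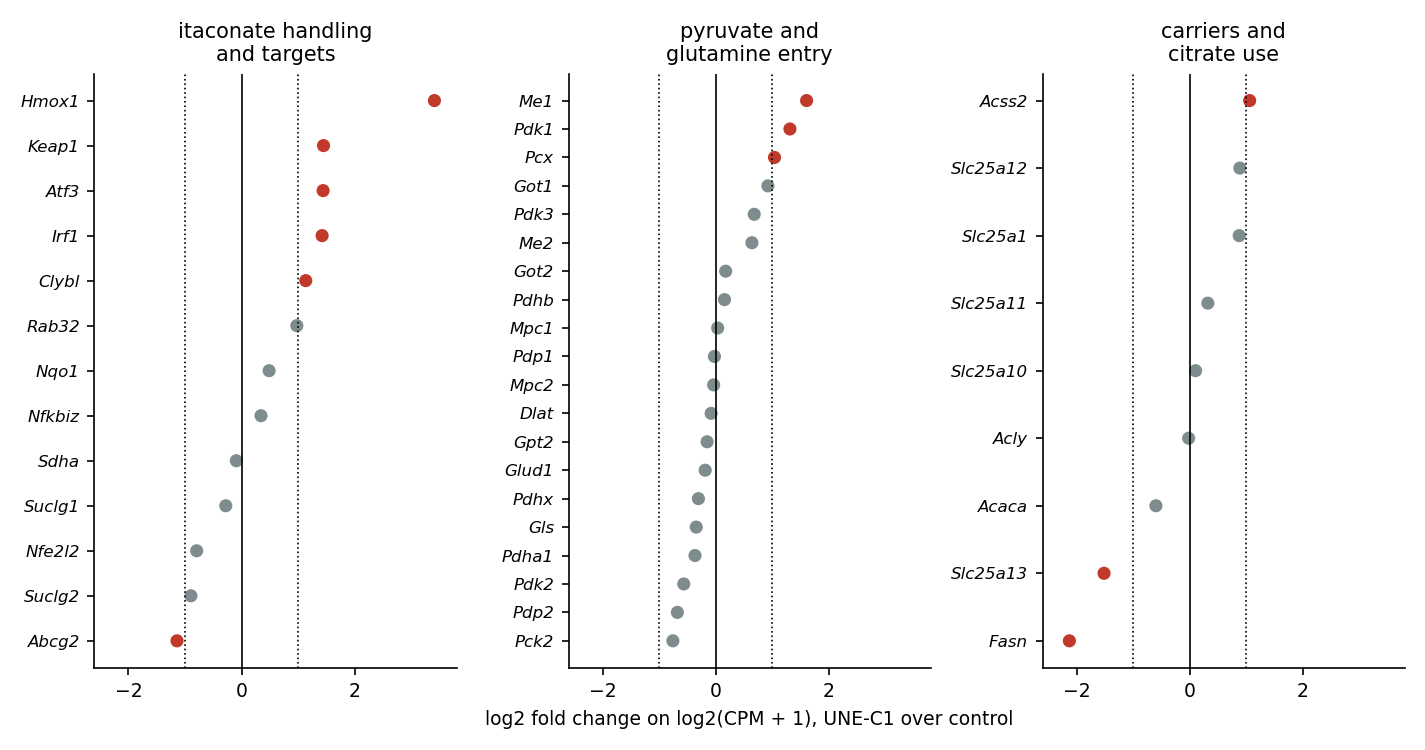
Log2 fold change (UNE-C1 over control, on log2(CPM + 1)) of the genes past the count floor on 3 surrounding lists, red where at least 2-fold and grey otherwise, with dotted lines at 2-fold. Hmox1 at 3.41 is the highest and Fasn at -2.13 the lowest.

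The genes whose levels in the 2 libraries were nearest to those of Irg1, by distance on the log2(CPM + 1) scale among 9994 genes past the floor, were AA467197, Cfb, Ms4a6d, Cdkn1a, Grina and AW112010. The nearest, AA467197, had 45560 reads in the UNE-C1 library and 4963 in the control library (distance 0.309 log2 units), and the sixth lay at a distance of 1.07. Cfb, complement factor B, had 33202 reads in the UNE-C1 library and 2826 in the control library. The nearest to the mean position of the 8 cycle enzymes were Cmas, Mrpl33 and Usp14, with log2 fold changes of -0.65, -0.58 and -0.56. With 2 libraries, this likeness rests on 2 values per gene.

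Markers of the cells in such a culture differed between the libraries as well. With TMM scaling, used for the marker counts below, 9.31% of all genes passed 2-fold higher and 9.42% passed 2-fold lower. Of 13 neutrophil markers past the floor, 11 were at least 2-fold lower and 1 higher, and their summed level was 3764 CPM in the UNE-C1 library and 8553 CPM in the control library. Of 14 genes of cell division, 11 passed 2-fold lower and 0 higher, and they summed to 146 CPM with UNE-C1 and 585 CPM in the control. Of 9 monocyte and macrophage markers past the floor, 4 were lower and 3 higher, with sums of 4866 CPM in the UNE-C1 library and 6993 CPM in the control library. Of 11 dendritic cell markers past the floor, 2 were lower and 2 higher, with sums of 11723 CPM in the UNE-C1 library and 12310 CPM in the control library. The 2 lower ones were Itgax, which encodes CD11c (3.08-fold), and Clec9a (4.36-fold), and the 2 higher ones were Xcr1 (4.13-fold) and Irf8 (log2 fold change 1.32). H2-Aa, H2-Ab1 and Cd74 of the MHC class II pathway had log2 fold changes of -0.14, -0.07 and -0.00, and Cd209a had 0 reads in both libraries. B, T and natural killer cell markers summed to 0.705 CPM with UNE-C1 and 2.27 CPM in the control, and Cd3e had 0 reads in both. With total counts, 6.28% of all genes passed 2-fold higher and 16.2% passed 2-fold lower. Under that scaling the markers Lcn2 and Irf8 no longer passed 2-fold higher (log2 fold changes 0.94 and 0.98). Csf3r, Csf1r, Flt3 and Ccna2 then passed 2-fold lower (-1.13, -1.01, -1.12 and -1.01). The part of these differences in the lower Idh2, Idh3a and Fh1 levels, or in the higher Irg1 level, was not tested, and in bulk RNA fewer cells of a type and less RNA per cell cannot be told apart.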

How the data were processed

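The files analysed hold 1 UNE-C1 and 1 control library, made with a QuantSeq kit and 500 ng of input each, per the labels' protocols. Their count columns are headed 3 for UNE-C1 and 1 for the control; what these numbers mean, and whether other libraries were made, is not known. The authors deposited raw counts for each gene symbol, a unit read from the values. Bowtie2, edgeR and mm10 appear in the submitters' processing notes, without versions or roles. The counting tool, annotation, strand setting and handling of multiply mapped reads were not given in the sources used here, so genes with near-identical copies are uncertain. No molecular identifiers are named, so PCR copies cannot be told from separate molecules.

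Counts of repeated symbols (35 symbols, 79 entries) were summed. CPM used TMM effective library sizes (edgeR 4.0.16, R 4.3.3), with factors of 0.888 for UNE-C1 and 1.13 for the control. Log2 fold changes add 1 CPM and understate changes of genes with few reads. Ratios are plain CPM ratios with exact conditional binomial (Clopper-Pearson) 95% intervals (scipy 1.17.1), CPM intervals are exact Poisson, and ratios of ratios have exact conditional odds ratio intervals. A count of 0 was taken to allow 3 reads. The comparison took genes that reached 50 reads in either library (10469 of 15848 with a read), which is 3.52 CPM in the UNE-C1 and 2.99 CPM in the control library. With 1 library per group, no p-value was computed and no count model was fitted. The procedure was tested on simulated data.

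The 9 genes, 4 pathway lists and 5 marker lists were chosen with earlier results of these data known. Named are the 9 genes, every gene of the pathway lists changed at least 2-fold or, where a list had none, its highest and lowest (of the marker lists mainly counts and sums are given), and the nearest 6 and 3 genes by level, leaving out predicted genes, clones and small RNAs. Of other genes named, Sdha, Sdhc, Sdhd, Idh3b, Idh3g, Suclg1, Nfe2l2, Nqo1, Nfkbiz, Rab32, Slc13a3, Oxgr1, Pck2, Pdha1, Pdhb, Dlat, Pdhx, Slc25a1, Slc25a12, Acly, Kmo, Itgax, Clec9a, Xcr1, Irf8, Lcn2, Csf3r, Csf1r, Flt3, Ccna2, H2-Aa, H2-Ab1, Cd74, Cd209a and Cd3e were chosen after their values were seen. Some results are not reported here. Positions come from GENCODE M21 (GRCm38) and promoter sequences from RefSeq (GRCm38.p6). Alternatives were total counts, DESeq2 1.42.0 size factors, upper quartile scaling, TMM without Rn45s, pseudocounts of 0.1 and 5 CPM, no floor and a floor of 200 reads.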

Additional observations from a re-analysis of the deposited data

How the results depend on the processing

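Over 8 alternatives, the counts of the 9 genes at least 2-fold changed were 1 higher and 3 lower, except that total counts gave 4 lower. The Irg1 log2 fold change ran from 3.16 with total counts to 3.51 with DESeq2 size factors, and was 3.42 with upper quartile scaling. The median of the 8 cycle enzymes was -0.77 with total counts and -0.52 with upper quartile scaling, and with the other alternatives it moved by less than the counting error. Idh2 ran from -1.87 to -1.37, Idh3a from -1.91 to -1.29 and Fh1 from -1.62 to -1.12, all past 2-fold under each alternative. Against the 8 enzymes instead of Cs, the Irg1 ratio of ratios was 14.3. With Idh3a added to the denominator, Idh1 made up 87.9% of the UNE-C1 reads. No paired analysis was possible because each group has 1 library. Of 160 other alternative values for single enzymes and lists, 133 stayed within counting error (for a count, within 1.5 times) and 27 did not. The floor settings cannot alter the value of a single enzyme, so those values were bound to stay. Only Idh2, Idh3a and Fh1 could be scored as turning sign, and 0 of their values did. Depth limits Suclg2, Abcg2, Pcx and Slc13a3, each with under 100 reads in either library.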
